A study of Mus musculus with 2 samples.

Results

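The Fc gamma receptors described here are 6 genes of the 31053 features in the count matrices, taken by name. They are the activating receptor chains Fcgr1, Fcgr3 and Fcgr4, their signalling chain Fcer1g, the inhibitory receptor Fcgr2b and the heavy chain of the neonatal Fc receptor, Fcgrt. All 6 were found in both libraries. They were followed in macrophage, monocyte, neutrophil, natural killer (NK) and B barcodes.

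The cells were CD45+ leukocytes sorted by flow cytometry from digested hearts, and total RNA is given as the molecule. All mice were C57BL/6, wild type and 10 weeks old. The TAC group had transverse aortic constriction, a narrowing of the aorta that raises the load on the left ventricle, and the sham group is its control. Each group was 1 count matrix of droplet data (10x Genomics), called a library here. The labels name several droplet runs per group, which were not separated. The design text gives 6 mice per group, whose cells were pooled with no mark of the animal. The sources used here do not give the time between operation and sampling.

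Fc gamma receptors bind the constant part of immunoglobulin G (IgG) and link antibody to phagocytes. Fcgr1, Fcgr3 and Fcgr4 encode binding chains that pair with the Fcer1g chain, whose cytoplasmic motif recruits the kinase Syk, while Fcgr2b carries an inhibitory motif that recruits the phosphatase SHIP1 (Inpp5d). Fcgrt pairs with beta-2 microglobulin (B2m) inside cells and returns bound IgG from endosomes to the surface. In mice, NK cells are known for Fcgr3, B cells for Fcgr2b and neutrophils for Fcgr3 and Fcgr4, whereas macrophages carry the whole family.

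With 1 library per group there was no test across samples, and library and condition cannot be told apart. UMIs (unique molecular identifiers, which count captured RNA molecules) were summed over the barcodes of a class and given as CPM, counts scaled to a common class total. Ratios are TAC over sham with exact 95% intervals that cover counting error only. The TAC library held 7975 barcodes and 97983083 UMIs and the sham library 11941 barcodes and 87532984 UMIs. After the filters, 5601 TAC and 4169 sham barcodes remained, with medians of 13892 and 9536 UMIs and of 4.42% and 8.02% mitochondrial UMIs. The libraries shared 35 barcode sequences, of which 7 were among the kept ones. Classes are named by marker genes and mean "like" that class. Barcodes named fibroblast (248 TAC and 212 sham) and endothelial (409 TAC and 117 sham) also passed the CD45 sort.

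The classes differed in how much macrophage RNA they carried, read from the complement genes C1qa, C1qb and C1qc, which macrophages transcribe. Macrophage barcodes had a median of 203 C1q UMIs per 10000 in TAC and 169 in sham. Monocyte barcodes (360 TAC and 66 sham) had 6.64 and 22.7. Neutrophil barcodes (1183 TAC and 178 sham) had 11.6 and 134. NK barcodes (71 TAC and 53 sham) had 8.42 and 111, and B barcodes (59 TAC and 160 sham) had 143 and 128. Values of these 4 classes are therefore given for all barcodes and for those with at most 50 C1q UMIs per 10000, called low in C1q. Those numbered 249 TAC and 37 sham monocytes, 733 TAC and 20 sham neutrophils, 41 TAC and 3 sham NK barcodes, and 16 TAC and 7 sham B barcodes.

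On mouse chromosome 1 lie 4 of the genes (GENCODE vM21, GRCm38). Fcgr2b (ENSMUSG00000026656, chr1:170958617-170976547, minus strand), Fcgr4 (ENSMUSG00000059089, chr1:171018920-171029761, plus strand) and Fcgr3 (ENSMUSG00000059498, chr1:171051174-171064935, minus strand) span 106 kb together. Fcer1g (ENSMUSG00000058715, chr1:171229572-171234365, minus strand) lies 165 kb beyond them. Fcgr1 (ENSMUSG00000015947) lies at chr3:96282909-96293969 and Fcgrt (ENSMUSG00000003420) at chr7:45092990-45103851, both on the minus strand. Fcgr3 and Fcgr2b are close relatives, and 166 stretches of 50 bases were shared by their transcripts, which is 10.2% of the stretches of Fcgr3. None of those of Fcgr3 lay in the last 500 bases of a transcript. Of the stretches of Fcgr2b, 249 (6.72%) were shared with any other gene, 82 of them in the last 500 bases. Reads of Fcgr2b and Fcgr3 that lie wholly in the shared part could not be assigned by sequence. Read length was not used here, so how many reads this touches was not tested. The sources used here do not say how the counting treated such reads. Antisense genes overlap Fcgr2b (Gm38204, with 1 TAC and 1 sham UMI) and Fcgrt (Gm45669, with 10 TAC and 14 sham UMIs), and their counts were too few to alter either value.

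The start regions of Fcgr1 and Fcgr4 are shown because these are the members that differed most between the libraries in macrophages, and because theirs were the member promoters with a match to a motif known from interferon-responsive genes. The windows searched are RefSeq promoters of 300 bases (250 before to 50 after the start, GRCm38.p6), found for all 6 genes, on both strands. The motifs were TTCNNNGAA (the gamma-activated site, palindromic), 2 copies of GAAA with NN between (the core of the interferon-stimulated response element) and GAGGAAGT (bound by PU.1, a factor of myeloid cells). Capitals mark the matches in the last 150 bases before the start, and none of the marked matches overlap.
Fcgr1, chr3:96293970-96294119, minus strand: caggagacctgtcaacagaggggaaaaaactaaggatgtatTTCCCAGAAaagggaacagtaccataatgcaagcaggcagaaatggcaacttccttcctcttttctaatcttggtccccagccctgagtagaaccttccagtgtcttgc
Fcgr4, chr1:171018776-171018925, plus strand: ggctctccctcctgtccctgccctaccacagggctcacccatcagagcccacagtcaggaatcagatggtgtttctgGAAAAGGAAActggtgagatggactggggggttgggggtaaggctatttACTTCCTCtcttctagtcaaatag
Fcgr1 held 1 match to TTCNNNGAA, 109 bases before the start. Fcgr4 held 1 match to the paired GAAA motif, 73 bases before the start, and 1 to GAGGAAGT on the other strand. Among 32851 promoters of this length, 8.30%, 3.44% and 3.20% held the 3 motifs in the order given above. The windows of Fcgr3, Fcer1g, Fcgr2b and Fcgrt held no match to any of them. A match describes letters and is not a measured binding site.

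Macrophages carried every member, and the members did not move together between the libraries. Fcgr4 and Fcgr1 were higher in TAC macrophages, Fcgrt was lower, and Fcgr3, Fcer1g and Fcgr2b differed by less than 1.5-fold. The comparison rests on 2698 TAC and 2757 sham barcodes with 42721560 and 26769689 UMIs. Fcgr4 and Fcgr1, 2 of the 6 members, were over 1.5-fold higher in TAC, and Fcgrt was over 1.5-fold lower. Of the 12775 genes with at least 20 UMIs there, 14.7% passed that limit upward in TAC and 22.6% downward. With 6 members these counts are read against that background as a description only.

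**Figure D1:**
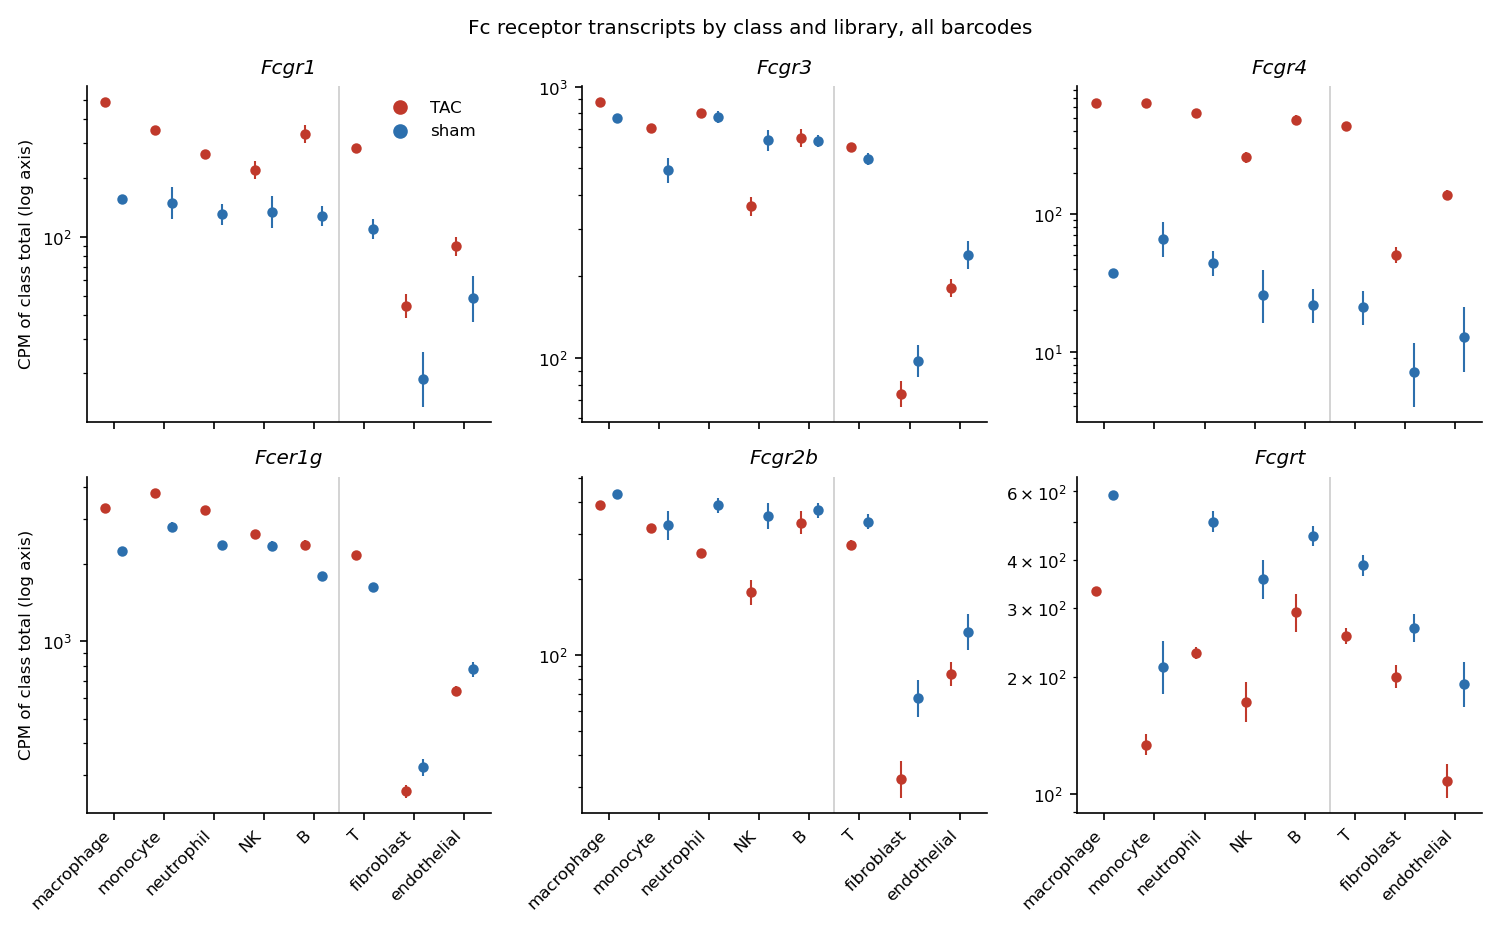
Level of each member in 8 classes, as CPM of the class total on a log axis, with TAC (red) left of sham (blue); bars are exact 95% Poisson intervals for counting error. Fcgr4 and Fcgr1 were higher in TAC in all 8 classes, and the grey line sets apart T, fibroblast and endothelial barcodes, which were used to read background.

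Fcgr4, the activating chain that binds IgG2 subclasses in mice, had 637 CPM in TAC macrophages (exact Poisson interval 630 to 645) and 37.1 CPM in sham macrophages (34.8 to 39.5). The level was 17.2-fold higher in TAC (16.1 to 18.3), and this ratio stood at percentile 99.5 of the 12775 genes. The median barcode had 5.52 Fcgr4 UMIs per 10000 in TAC and 0 in sham, where even the 90th percentile was 1.35. With every barcode thinned to 1000 UMIs, 43.6% of TAC macrophages (Clopper-Pearson interval 41.8 to 45.5) and 3.56% of sham macrophages (2.90 to 4.32) had an Fcgr4 UMI. Unthinned, these shares were 90.9% and 20.6%.

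Fcgr1, the high-affinity receptor for monomeric IgG, had 484 CPM in TAC and 156 CPM in sham macrophages. It was 3.10-fold higher in TAC (2.99 to 3.20), at percentile 96.4 of all genes. At 1000 UMIs per barcode, 36.3% of TAC and 13.9% of sham macrophages had an Fcgr1 UMI. Fcgr3, the low-affinity activating receptor, had 875 CPM in TAC and 767 CPM in sham, a ratio of 1.14 (1.12 to 1.16). The share of barcodes with an Fcgr3 UMI was 57.1% in TAC and 53.4% in sham at 1000 UMIs, and 98.2% and 98.5% without thinning. Without thinning, a UMI of Fcgr3 was thus found in nearly all macrophage barcodes of both libraries, and of Fcgr4 in nearly all of TAC alone. Median depth was 14109 UMIs in TAC and 8593 in sham macrophages, so unthinned shares do not compare like with like. In T barcodes, unthinned Fcgr4 was found in 73.9% (TAC) and 20.6% (sham), and Fcgr3 in 78.9% and 94.8%. In fibroblasts these were 16.5% and 4.25%, and 20.6% and 18.4%. An unthinned share alone therefore does not place a member in the cell.

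Fcer1g, the signalling chain without which the activating receptors do not reach the surface, had the most UMIs of the members. It had 3304 CPM in TAC and 2258 CPM in sham macrophages, a ratio of 1.46 (1.45 to 1.48). Under median-ratio scaling its log2 ratio was 0.65, which is over 1.5-fold. Its UMIs were found in 93.1% of TAC and 87.3% of sham macrophages at 1000 UMIs. Fcgr2b, the inhibitory receptor, had 391 CPM in TAC and 432 CPM in sham, a ratio of 0.90 (0.88 to 0.93). At 1000 UMIs, 32.1% of TAC and 35.2% of sham macrophages had an Fcgr2b UMI.

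Fcgrt went the other way. It had 332 CPM in TAC and 589 CPM in sham macrophages, and was 1.77-fold lower in TAC (1.73 to 1.81), at percentile 14.3 of all genes. With barcodes up to 25% mitochondrial UMIs kept, its log2 ratio was −0.56, which is less than 1.5-fold. Barcodes with an Fcgrt UMI at 1000 UMIs were 25.1% in TAC and 41.2% in sham. In fibroblasts low in C1q, the receptor chains other than Fcgrt are not expected. These barcodes gave a background with little macrophage RNA. Their median depth before thinning was 15140 UMIs in TAC and 8925 in sham over the whole class, against 14109 and 8593 in macrophages. At 1000 UMIs they gave Fcgr4 in 0.873% (TAC) and 0.532% (sham), Fcgr3 in 2.62% and 1.60%, Fcer1g in 4.80% and 5.85%, and Fcgr2b in 1.31% and 2.66%. Fcgr1 was found there in 0.873% of TAC barcodes and in 0 of 188 sham barcodes, which allows a share of up to 1.60% by the limit of 3 counts and up to 1.94% by the Clopper-Pearson interval. Fcgrt was found in 19.2% of TAC and 16.5% of sham fibroblasts, so its level there is no background but a level of its own. The limit on C1q leaves out barcodes rich in macrophage RNA, so these shares do not give the background in such barcodes. Over all fibroblasts, Fcgr4 was found in 3.24% (TAC) and 0.474% (sham) at 1000 UMIs. Over all T barcodes, of which 67.9% and 87.1% were above the C1q limit, it was found in 29.1% and 1.29%.

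**Figure D2:**
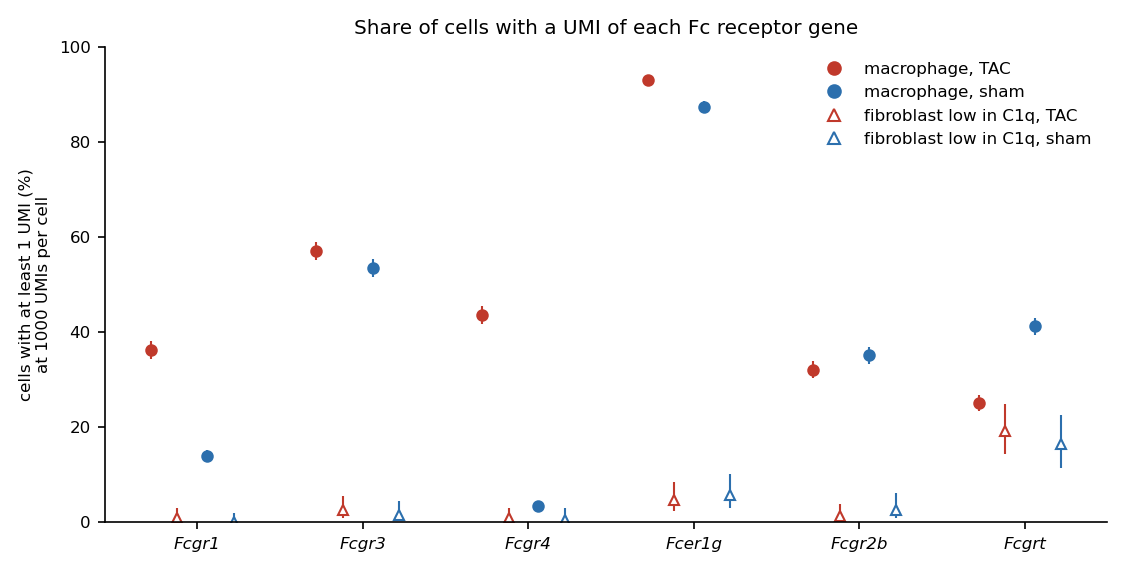
Share of barcodes with at least 1 UMI of each member after thinning to 1000 UMIs, with TAC (red) left of sham (blue); circles are macrophages, triangles are fibroblasts low in C1q, and bars are Clopper-Pearson 95% intervals. Fcgr4 was found in 43.6% of TAC and 3.56% of sham macrophages, and Fcgrt in 25.1% and 41.2%.

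Activating and inhibitory receptors were set against each other within each library, where the class total cancels. TAC macrophages had 85261 UMIs of Fcgr1, Fcgr3 and Fcgr4 for 16689 of Fcgr2b, or 5.11 activating per inhibitory UMI. Sham macrophages had 25710 for 11568, or 2.22. The TAC value was 2.30-fold the sham value (exact interval 2.24 to 2.36). At 1000 UMIs per barcode, 54.2% of TAC and 39.2% of sham macrophages had activating receptor UMIs alone. Fcgr2b alone was found in 4.56% and 13%, both kinds in 27.5% and 22.1%, and neither in 13.7% and 25.7%. UMIs of different genes were not scaled for length, so the value serves to set the libraries against each other and not the receptors.

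Different clusters held most of the macrophages of each library. Clusters 0, 1 and 3, with the leading genes Pf4 and Lyve1 in cluster 0, the stress genes Hspa1a and Hspa1b in cluster 1, and both kinds in cluster 3, held 89.5% of sham but 8.01% of TAC macrophages. Clusters 2 (Ccl12, Gbp2b), 5 (Ccl4, Ccl3), 7 (cell cycle genes Top2a and Mki67), 12 (Ccl8, Lyve1), 15 (Gdf15, Hmox1) and 17 (Fabp5, Spp1) held 92.0% of TAC and 10.5% of sham macrophages. With 1 library per group, a cluster made mostly of 1 library may be that library rather than a cell state. The 6 members were not among the genes used to cluster. In 7 of the 9 clusters each library had at least 15 barcodes, and the members were compared within them. Clusters 2 and 17 were left out, with 917 and 169 TAC barcodes and 5 and 9 sham barcodes. The shares of all genes past 1.5-fold are not given within clusters, so counts of clusters have no background beside them. Whether a shift within clusters is particular to the members was not tested.

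Fcgr4 was at least 1.5-fold higher in TAC in 7 of these 7 clusters, with ratios between 1.71 in cluster 3 and 26.4 in cluster 7. The interval in cluster 3 (0.95 to 2.85) took in 1. In the sham-dominated cluster 0 it had 74.6 CPM in TAC and 11.4 CPM in sham (6.56-fold, 4.82 to 8.90). In cluster 12, the TAC-dominated cluster with Lyve1 and Timd4, it had 630 CPM in TAC and 314 CPM in sham (2.01-fold, 1.54 to 2.68), from 54 sham UMIs in 16 barcodes. The sham barcodes of clusters 5 and 12 (159 and 314 CPM) and of the sham-dominated cluster 1 (73.7 CPM) were above the 37.1 CPM of all sham macrophages, whereas those of cluster 7 (18.2 CPM) were below it, and the TAC barcodes of clusters 0, 1 and 3 (74.6, 259 and 40.9 CPM) were below the 637 CPM of all TAC macrophages. Fcgr1 was at least 1.5-fold higher in 4 of the 7 clusters, with the highest ratio in cluster 7 (419 CPM in TAC and 107 CPM in sham, 3.93-fold). In cluster 12 it had 587 CPM in TAC and 680 CPM in sham, with a ratio of 0.86 (0.72 to 1.05).

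Fcgrt and Fcgr2b changed direction within clusters. Fcgrt, lower in TAC over all macrophages, was higher in TAC in 6 of the 7 clusters, with intervals above 1 in clusters 0, 3, 5, 12 and 15. Cluster 0 had 1177 CPM in TAC and 896 CPM in sham (1.31-fold, 1.24 to 1.39), and cluster 12 had 744 CPM in TAC and 412 CPM in sham (1.81-fold, 1.43 to 2.32). Cluster 1 had 374 CPM in TAC and 373 CPM in sham. The cycling cluster 7 alone was lower in TAC, with 167 CPM in TAC and 280 CPM in sham. Fcgrt thus differed more between clusters than between libraries within a cluster, from 115 to 896 CPM over the sham parts and from 167 to 1177 CPM over the TAC parts of these 7 clusters. Fcgr2b was likewise above 1 in 6 of the 7 clusters, by up to 1.46-fold in cluster 0, and below 1 in cluster 7 (0.82, 0.75 to 0.89). Fcgr3 (1.16 to 1.5) and Fcer1g (1.21 to 1.53) were above 1 in all 7.

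**Figure D3:**
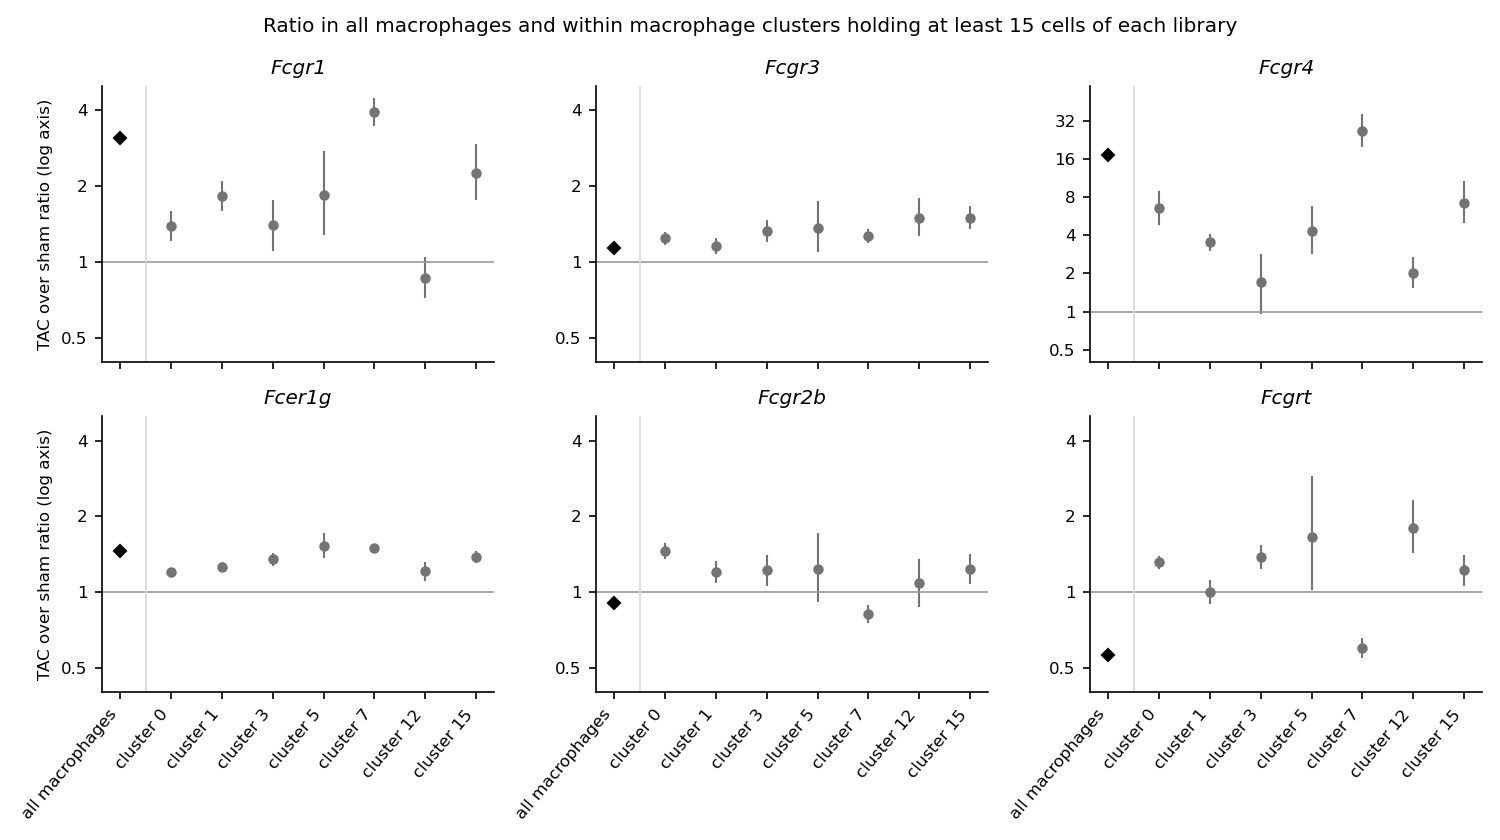
TAC over sham ratio of each member on a log axis, over all macrophages (black diamond) and within the 7 macrophage clusters with at least 15 barcodes of each library (grey circles); bars are exact 95% intervals for counting error. Fcgr4 was above 1 in each cluster, while Fcgrt was 0.56 over all macrophages and above 1 within 6 of the clusters.

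The number of activating UMIs per inhibitory UMI followed the clusters as well. In clusters 0, 1 and 3 it was 1.96, 2.87 and 2.41 in TAC and 2.16, 2.40 and 2.18 in sham. In cluster 0 the TAC value was 0.90 times the sham value (0.82 to 0.996), and in cluster 3 the interval took in 1 (0.93 to 1.31). In cluster 7 the values were 5.77 in TAC and 1.86 in sham, a ratio of 3.10 (2.81 to 3.42). Clusters 5, 12 and 15 gave ratios of 1.60, 1.24 and 1.53, with an interval for cluster 12 of 0.96 to 1.59. The 2.30-fold difference over all macrophages was therefore not found at that size in 6 of the 7 clusters.

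**Figure D4:**
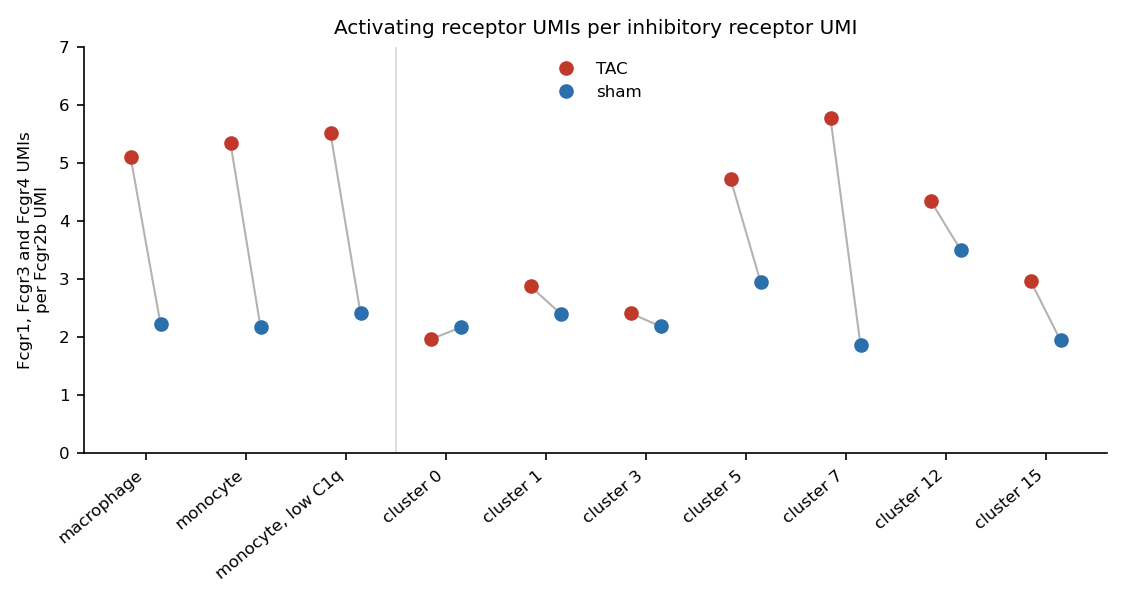
Fcgr1, Fcgr3 and Fcgr4 UMIs per Fcgr2b UMI in TAC (red, left) and sham (blue, right), for macrophages, monocytes and the 7 macrophage clusters with at least 15 barcodes of each library. All macrophages had 5.11 in TAC and 2.22 in sham, and cluster 0 had 1.96 in TAC and 2.16 in sham.

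Macrophages with a UMI of Lyve1, Folr2 or Timd4 at 1000 UMIs, genes known from resident heart macrophages, were compared apart from those without one. In the 1157 TAC and 2033 sham barcodes with such a UMI, Fcgr4 had 602 and 27.9 CPM (21.5-fold higher in TAC, 19.8 to 23.5). In the 1540 TAC and 723 sham barcodes without one, it had 665 and 65.1 CPM (10.2-fold higher). Fcgrt had 544 and 682 CPM in the barcodes with a resident gene UMI, and 165 and 305 CPM in those without. Fcgrt was thus higher beside resident genes in each library, and the difference between libraries was smaller there (1.25-fold lower in TAC) than elsewhere (1.85-fold lower).

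The libraries also differed in measures outside the receptors. Among macrophages, 13.9% of TAC and 0.653% of sham barcodes had over 5 UMIs per 10000 of the neutrophil genes S100a8 and S100a9, and 15% and 1.34% had over 1 of the monocyte genes Ly6c2, Chil3 and Plac8. The summed level of 23 neutrophil markers was 7198 CPM in TAC and 3646 CPM in sham macrophages, with 20 markers over 1.5-fold higher in TAC. That of 25 monocyte markers was 16927 and 17586 CPM, with 16 markers over 1.5-fold higher in TAC and 3 lower. That of 25 macrophage markers was 42417 and 56972 CPM, with 2 markers over 1.5-fold higher in TAC and 13 lower. How far this difference bears on the ratios of the members was not tested. Leaving either set of barcodes out kept every member of the macrophage comparison on its side of 1.5-fold. Median mitochondrial shares of macrophages were 4.64% in TAC and 8.29% in sham. In the 1139 TAC and 2710 sham macrophages between 5 and 10%, the ratios were 17.4 for Fcgr4, 2.94 for Fcgr1 and 0.54 for Fcgrt, close to those over all macrophages. At or below 5% there were 47 sham barcodes, and there Fcgrt had 337 CPM in TAC and 344 CPM in sham (1.02-fold lower in TAC, 0.88 to 1.19).

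Monocytes, the blood-borne precursors of inflammatory macrophages, differed between the libraries in the same members as macrophages. Of the 6 members, 2 were at least 1.5-fold higher in TAC monocytes, beside 18.6% of 9514 genes, and 1 at least 1.5-fold lower, beside 19.4%. Fcgr4 had 641 CPM in TAC and 65.8 CPM in sham monocytes (9.74-fold higher, 7.35 to 13.2). Fcgr1 had 348 and 149 CPM (2.34-fold, 1.93 to 2.85). Fcgrt had 134 and 212 CPM (1.58-fold lower), and its log2 ratio turned to 2.52 when the part of macrophages was subtracted by C1q, which left 4.47 of the 158 sham UMIs. Fcgr3 had 702 and 492 CPM, Fcer1g 3775 and 2799 CPM, and Fcgr2b 317 and 325 CPM.

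In monocytes low in C1q the Fcgr4 difference was of like size, with 608 CPM in TAC and 43.4 CPM in sham, from 2450 and 14 UMIs (14.0-fold, 8.34 to 25.7). There 3 members, Fcgr4, Fcgr1 and Fcgr3, were at least 1.5-fold higher and 0 lower, beside 23.3% and 17.8% of 8149 genes. Fcgrt was low in both libraries, with 25.8 CPM in TAC and 31.0 CPM in sham (10 sham UMIs), below the 195 and 214 CPM of fibroblasts low in C1q. The C1q-rich monocytes held 894 of the 998 Fcgrt UMIs of the class in TAC and 148 of 158 in sham. Finer clustering split the class into a cluster led by Plac8, Chil3 and Ly6c2 and a cluster with Nr4a1 and Treml4, genes of patrolling monocytes. Both are given over all their barcodes, with no limit on C1q. The Ly6c2 cluster had medians of 4.82 (TAC) and 2.59 (sham) C1q UMIs per 10000, and the Nr4a1 cluster 9.68 and 90.1. Its sham part thus carried more macrophage RNA than the other parts. Fcgr4 had 390 CPM in TAC and 36.9 CPM in sham in the Ly6c2 cluster (223 and 49 barcodes), and 1250 CPM in TAC and 134 CPM in sham in the Nr4a1 cluster (135 and 18 barcodes). It was higher in the Nr4a1 cluster in each library, by counts from 29 sham UMIs. Fcer1g had 5150 CPM in TAC and 2748 CPM in sham in the Nr4a1 cluster, against 3212 and 2805 CPM in the Ly6c2 cluster.

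Neutrophils, granulocytes known to bind immune complexes through Fcgr3 and Fcgr4, had 543 CPM of Fcgr4 in TAC and 43.8 CPM in sham (12.4-fold, 10.1 to 15.4). Over all neutrophil barcodes, 2 members (Fcgr4 and Fcgr1) were at least 1.5-fold higher, beside 11.9% of 10728 genes, and 2 (Fcgr2b and Fcgrt) at least 1.5-fold lower, beside 36.5%. Most sham neutrophils (88.8%) and 38.0% of TAC neutrophils were C1q-rich. The UMIs of Fcgr1 matched their C1q content: at the ratio of Fcgr1 to C1q found in macrophages of the same library, the C1q of neutrophil barcodes corresponds to 100% of Fcgr1 UMIs in TAC and 99.3% in sham. For Fcgr3 the corresponding shares were 59.3% and 81.9%, for Fcgr4 63.8% and 69.9%, and for Fcer1g 55.5% and 78.6%. With that part subtracted, Fcgr2b and Fcgrt were higher in TAC neutrophils, with log2 ratios of 0.26 and 1.63, from 70.4 and 34.6 sham UMIs left of 836 and 1078. In neutrophils low in C1q both were lower in TAC, so these ways of setting macrophage RNA aside gave opposite directions.

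In TAC, neutrophils low in C1q had Fcer1g, Fcgr3 and Fcgr4 nearer to their levels in macrophages than the other members. The 733 TAC barcodes had 2905 CPM of Fcer1g, 597 CPM of Fcgr3 and 357 CPM of Fcgr4, but 45.2 CPM of Fcgr2b, 31.1 CPM of Fcgr1 and 12.2 CPM of Fcgrt. The 20 sham barcodes had 2338 CPM of Fcer1g, 454 CPM of Fcgr3, 88.8 CPM of Fcgr4, 187 CPM of Fcgr2b, 78.9 CPM of Fcgr1 and 19.7 CPM of Fcgrt. Fcgr4 remained higher in TAC (4.02-fold, 2.11 to 8.81), from 9 sham UMIs, while Fcgr1 was 2.54-fold lower in TAC (1.08 to 5.12), from 8 sham UMIs. Fcgr2b was 4.14-fold lower in TAC (2.45 to 6.62), and Fcgrt 1.62-fold lower with an interval that took in 1, from 2 sham UMIs. There 1 member was at least 1.5-fold higher and 3 lower, beside 18.3% and 41.5% of 6711 genes. Different clusters held the neutrophils: clusters 4, 13 and 19 were mostly of TAC, and cluster 18 held 158 of the 178 sham barcodes. UMIs are pooled, so deep barcodes weigh more in the CPM of a set. The 137 TAC barcodes of cluster 19, led by Ngp, Lcn2 and Camp, had a median of 24544 UMIs. The 646 TAC barcodes of cluster 4 had a median of 4346. In sham these clusters held 5 and 13 barcodes. Over all barcodes, with no limit on C1q, Fcgr4 had 237 CPM in TAC and 43.2 CPM in sham in cluster 18. The TAC parts of clusters 4, 13 and 19 had 509, 703 and 246 CPM. Median C1q UMIs per 10000 were 167 in TAC and 140 in sham in cluster 18, and 5.98, 166 and 3.08 in those TAC parts. The values of clusters 13 and 18 thus include macrophage RNA.

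**Figure D5:**
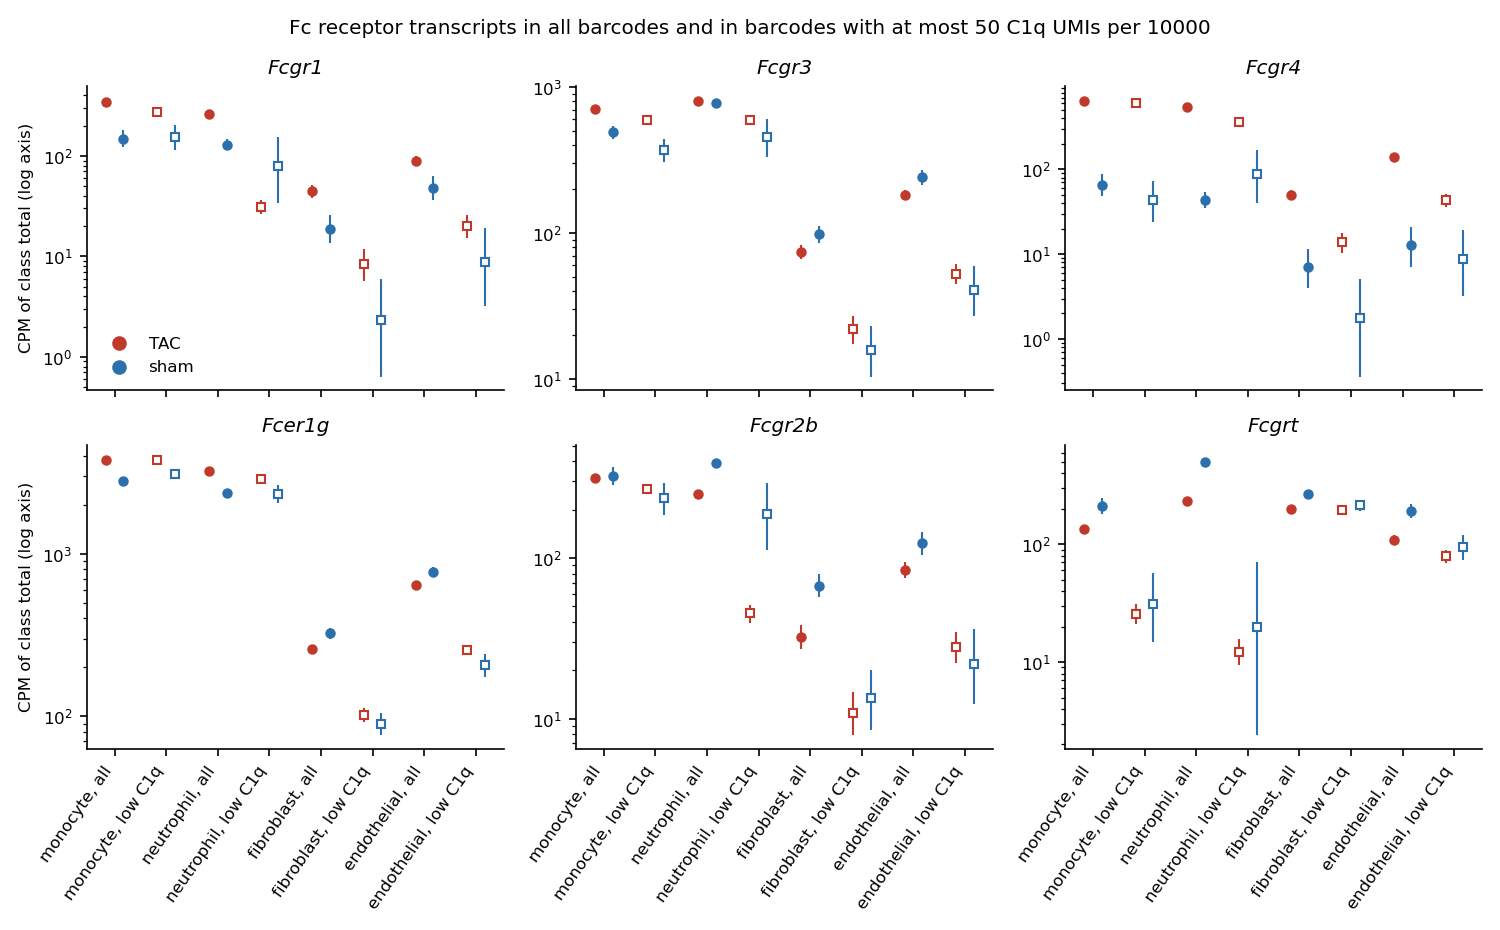
Level of each member on a log axis in all barcodes (filled circles) and in barcodes with at most 50 C1q UMIs per 10000 (open squares) of 4 classes, with TAC (red) left of sham (blue); bars are exact 95% Poisson intervals. In neutrophils low in C1q, Fcgr1 had 31.1 CPM in TAC and 78.9 CPM in sham, whereas over all neutrophils it had 263 and 130 CPM.

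NK cells depend on Fcgr3 for antibody-directed killing. Over all NK barcodes, Fcgr3 had 362 CPM in TAC and 634 CPM in sham (1.75-fold lower in TAC, 1.56 to 1.97). Of the 6 members, 2 were at least 1.5-fold higher in TAC, beside 25.8% of 7996 genes, and 3 at least 1.5-fold lower, beside 21.0%. The C1q of these barcodes corresponded to 95% of Fcgr3 UMIs in TAC and 80.4% in sham, and to 97.3% and 95.6% of Fcgr4 UMIs. In the C1q-rich NK barcodes alone (30 TAC and 50 sham), Fcgr3 had 636 and 640 CPM. In the 41 TAC barcodes low in C1q it had 89.6 CPM from 73 UMIs, and the 3 sham barcodes gave 5 UMIs. Fcer1g, which NK cells also use for other receptors, had 2204 CPM in the TAC and 2369 CPM in the sham barcodes low in C1q, near the 2618 and 2360 CPM of all NK barcodes. Among NK barcodes low in C1q, 5 members reached 20 UMIs. Counted like all genes, with 0.5 UMI added, 2 (Fcgr1 and Fcgr4) were at least 1.5-fold higher, beside 25.4% of 4566 genes, and 2 (Fcgr3 and Fcgr2b) lower, beside 31.8%. Fcgr1 and Fcgr4 were at 0 UMIs in the 3 sham barcodes, so their calls rest on the UMIs added.

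B cells are known for Fcgr2b, which dampens signals of the antigen receptor. Over all B barcodes, Fcgr2b had 333 CPM in TAC and 372 CPM in sham (ratio 0.89, 0.79 to 1.01). Fcgr4, which B cells are not known to carry, had 481 CPM in TAC and 21.7 CPM in sham (22.2-fold, 16.6 to 30.1). Of the 6 members, 2 were at least 1.5-fold higher in TAC, beside 15.1% of 8656 genes, and 1 at least 1.5-fold lower, beside 24.0%. The C1q of B barcodes corresponded to 88.3% of their Fcgr4 UMIs in TAC and 131% in sham, and to 78.2% and 88.9% of their Fcgr2b UMIs. T barcodes, used to read background, gave 86.1% and 118% for Fcgr4, and 85.7% and 86.1% for Fcgr2b. Most UMIs of these members in B barcodes were thus matched by C1q at the macrophage ratio. Those low in C1q had few UMIs: Fcgr2b had 43.6 CPM in 16 TAC barcodes (7 UMIs) and 249 CPM in 7 sham barcodes (25 UMIs). Of the 4 members that reached 20 UMIs there, 1 (Fcgr4) was at least 1.5-fold higher in TAC, beside 32.5% of 1658 genes, and 3 (Fcgr3, Fcer1g and Fcgr2b) at least 1.5-fold lower, beside 27.7%. Fcgr3 had 56.1 CPM in TAC and 398 CPM in sham in these barcodes, and what part of it came from myeloid RNA was not tested.

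Across the 5 classes, each member had its own order of levels over all barcodes, which include macrophage RNA. In TAC, Fcgr1 was highest in macrophages (484 CPM), followed by monocytes (348 CPM) and B barcodes (333 CPM), which did not differ beyond counting error, then neutrophils (263 CPM) and NK barcodes (220 CPM). In sham, macrophages (156 CPM) and monocytes (149 CPM) did not differ beyond it, nor did neutrophils, NK and B barcodes (128 to 134 CPM). Fcgr4 did not differ beyond counting error between TAC monocytes (641 CPM) and TAC macrophages (637 CPM). In sham its order was monocytes (65.8 CPM), neutrophils (43.8 CPM), macrophages (37.1 CPM), NK (25.8 CPM) and B barcodes (21.7 CPM), and the counting intervals of neighbours in this order overlapped. Fcgr3 in TAC was highest in macrophages (875 CPM), then neutrophils, monocytes, B and NK barcodes, and in sham did not differ beyond counting error between neutrophils (773 CPM) and macrophages (767 CPM). Fcgr2b was highest in macrophages in each library. Fcer1g was highest in monocytes in each library. Fcgrt was highest in macrophages and lowest in monocytes in each library. Among TAC barcodes low in C1q the order of the other 4 classes turned. Fcgr1 had 276 CPM in monocytes, 81.0 CPM in NK barcodes, 31.1 CPM in neutrophils and 0 UMIs in B barcodes. Fcgrt had 25.8 CPM in monocytes, 14.7 CPM in NK barcodes, 12.2 CPM in neutrophils and 6.23 CPM (1 UMI) in B barcodes, and the counting intervals of neighbours in this order overlapped.

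The genes whose profiles were most like those of the members were found by Pearson correlation of log2(CPM + 10) over 16 profiles of 8 classes in 2 libraries, among 4871 genes. These profiles share macrophage RNA, so a high r is a description. Fcgr1 was most like Ctss (r = 0.99), Lair1 (0.98) and Ms4a6d (0.98). Fcgr3 was most like Lrrc25, Unc93b1 and Clec4a2, each at 0.98. Fcgr4 was most like Phf11a (0.97), Gapdh (0.97) and Phf11b (0.96). Fcer1g was nearest to Itgam (0.99), Cotl1 (0.98) and Fyb (0.98), and Fcgr2b to Cd86 (0.99), Cyth4 (0.98) and Trem2 (0.98). Fcgrt had Rab3il1 (0.96), Fam213b (0.94) and Itsn1 (0.93), the loosest likeness of the members.

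Other genes of the pathway were read from 7 lists in macrophages, where the median log2 ratio of all 12775 genes was −0.10. Upward, 14.7% of all these genes passed the 1.5-fold limit, and downward 22.6% did. The counts of each list, here and below, stand beside these shares as a description. They were not tested against them. Of 18 activating signalling genes, 6 were higher in TAC by 1.5-fold or more and 0 were lower, and the list's median was 0.29 on the log2 scale. The adaptor Lat2 had 99.5 CPM in TAC and 40.01 CPM in sham (2.49-fold). Syk, the kinase that Fcer1g recruits, had 74.8 CPM in TAC and 108 CPM in sham (0.69), and the adaptor Blnk 60.2 and 77.0 CPM (0.78). Of 14 inhibitory signalling genes, 6 were higher and 4 lower, with a median of 0.38. Cd72, an inhibitory surface receptor, had 465 CPM in TAC and 82.8 CPM in sham (5.62-fold), and the phosphatase Ptpn6 (SHP-1) 256 and 128 CPM (2.0-fold). The adaptor Dok2 had 81.6 CPM in TAC and 140 CPM in sham (0.58), and the ubiquitin ligase Cbl 53.6 and 88.4 CPM (0.61). Genes at least 1.5-fold higher were thus found on the activating and on the inhibitory side.

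Of 13 other Fc receptors and Fc-binding proteins, 7 passed the limit of 20 UMIs, with 4 higher, 2 lower and a median of 0.85. B2m, the partner of Fcgrt, had 4084 CPM in TAC and 1748 CPM in sham (2.34-fold higher), opposite to Fcgrt over all macrophages. Fcrls, a receptor-like gene of macrophages, had 179 CPM in TAC and 347 CPM in sham (0.51). Fcrl5 had 18 UMIs in TAC and 2 in sham (5.64-fold, interval 1.35 to 50.1), and Fcer1a, the binding chain of the mast cell IgE receptor, 0 and 22 UMIs. Of 13 genes on the list of adaptors and other partners of the common gamma chain, 10 passed, with 5 higher, 0 lower and a median of 0.57. The list also holds other adaptors and receptors, so not all of its genes pair with Fcer1g. Trem1 had 14.0 CPM in TAC and 1.42 CPM in sham (9.83-fold), and Clec4e, a receptor for damaged cells that signals through Fcer1g, 88.2 and 15.95 CPM (5.53-fold). Trem1 is also on the list of neutrophil markers, which were higher in TAC macrophages as given above. Trem2 had 229 CPM in TAC and 222 CPM in sham (1.03), and Hcst 39.8 and 42.5 CPM (0.94).

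Of 15 NADPH oxidase and uptake genes, 5 were higher, 0 lower and the median was 0.39. The integrin chain Itgax had 11.3 CPM in TAC and 3.66 CPM in sham (3.08-fold), and Coro1a, of the actin coat of phagosomes, 601 and 358 CPM (1.68-fold). Marcks had 510 CPM in TAC and 605 CPM in sham (0.84). Of 19 regulators, 17 passed, with 6 higher, 2 lower and a median of −0.03. Il10 had 31.7 CPM in TAC and 7.58 CPM in sham (4.18-fold). Tgfbr2 had 99.6 CPM in TAC and 186 CPM in sham (0.54), and Ifngr1, the binding chain of the interferon gamma receptor, 161 and 249 CPM (0.64).

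The ligand side was read from 13 immunoglobulin constant region genes, of which 4 passed the limit in macrophages, with 0 higher, 1 lower and a median of −0.31. Ighm had 169 CPM in TAC and 195 CPM in sham (0.87), Igkc 2.29 and 3.03 CPM (0.76), Igha 0.51 and 0.60 CPM (0.86), and Ighd 1.19 and 2.09 CPM (0.57, 0.38 to 0.85). No gene of an IgG heavy chain reached 20 UMIs in macrophages. Antibody bound to these receptors comes from plasma and is not seen in RNA.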

How the data were processed

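The authors deposited raw UMI counts per gene and barcode for 1 TAC and 1 sham library, made with Cell Ranger 3.0 and mm10, per the submitters' processing notes. The labels name several droplet runs per group, which were not separated. The sources used here do not give the rule that called barcodes as cells.

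Barcodes were kept from 300 genes upward and up to 10% mitochondrial UMIs, and no doublet caller was applied. Both libraries were clustered together with scanpy 1.11.5 (2000 variable genes without the 6 members, 30 components, 15 neighbours, Leiden resolution 1). A cluster took a class name from 3 or more marker genes among its 10 leading genes. Otherwise each marker was scored as present where at least 50% of barcodes held it, and the class with the largest present share gave the name, from 55% upward and with no other class ahead among the leading genes. Markers detected that widely in at least 80% of clusters did not count against a name. This last clause was set after clusters were seen, since a stricter version left cluster 1 (95 TAC and 885 sham barcodes) unnamed. Clusters 11, 16 and 21 stayed unnamed (225 TAC and 447 sham barcodes).

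UMIs were summed per class, with exact Poisson, conditional binomial and Clopper-Pearson intervals (scipy 1.17.1). Only the interval of the TAC over sham ratio and the calls past 1.5-fold were tested on simulated data. Those were Poisson counts, which hold counting error alone. Genes needed 20 UMIs over both libraries to enter a count or list, and the ratios counted against the limit and those of lists had 0.5 UMI added. All 6 members passed this limit in all 5 classes, and 4 of 6 in B and 5 of 6 in NK barcodes low in C1q. Cells are not replicates, so no p-value was computed. Members, lists and markers were chosen with earlier results of these data known. Named genes are the members, the 2 highest and 2 lowest of each list in macrophages and the 3 most alike per member. Some of the genes this rule names are not reported here.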

Additional observations from a re-analysis of the deposited data

How the results depend on the processing

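No paired analysis was possible because each group is 1 library. In macrophages, Fcgr1 (log2 ratio 1.56 to 1.73) and Fcgr4 (4.02 to 4.30) kept direction and size over 12 alternatives, and Fcgrt (−0.88 to −0.56) kept its direction. The alternatives with barcodes between 5 and 10% mitochondrial UMIs, or without S100a8 and S100a9 or Ly6c2, Chil3 and Plac8 in macrophages, were chosen after seeing the data. The ratio of activating per inhibitory UMIs in macrophages was 2.38 at a limit of 25% mitochondrial UMIs, 2.20 with each cell weighted equally and 2.17 between 5 and 10%, against 2.30. Causes of these shifts were not tested.

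Counts of members past 1.5-fold moved as follows. The share of all genes past the limit is given above for the main setting and the sets low in C1q alone. The other counts below therefore have no background beside them and only describe how the calls on members moved. At 25% mitochondrial UMIs, 0 were lower in macrophages, 1 in neutrophils and 0 in B barcodes. With cells thinned to 1000 UMIs, 4 were higher and 0 lower in monocytes, 0 higher in NK and 1 higher in B barcodes. With cells weighted equally, 1 was higher in neutrophils and 1 in NK barcodes. Under median-ratio scaling, 3 were higher in macrophages with Fcer1g (log2 ratio 0.65), 1 was lower in neutrophils and 0 in B barcodes. Without C1q-rich barcodes, 0 were lower in monocytes, 1 higher in neutrophils, and 1 higher and 3 lower in B barcodes. With the macrophage part subtracted by C1q, 4 were higher and 0 lower in monocytes and in neutrophils, and 0 lower in B barcodes. Without the deepest 5%, and between 5 and 10% mitochondrial, 0 were lower in monocytes, and between 5 and 10% 2 were lower in B barcodes. At 2-fold, 0 were lower in macrophages, monocytes and B barcodes, 1 lower in neutrophils and 1 higher in NK barcodes.

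The log2 ratio reversed to −0.10 (thinned) and −0.034 (subtracted) for Fcgr1 in NK barcodes, and to −1.34 for Fcgr1 in neutrophils low in C1q. After subtraction it reversed to 2.52, 1.63 and 2.76 for Fcgrt in monocytes, neutrophils and B barcodes, and to 0.26 for Fcgr2b in neutrophils. In TAC, the C1q of neutrophils corresponded to 78.4% of Fcgrt UMIs and that of B barcodes to 75.4%. T barcodes, used to read background, gave a like share of 77.5% in TAC, and 102% in sham. Whether the Fcgrt UMIs left after subtraction belong to these classes was not tested. The difference in shares of macrophages with an Fcgr3 UMI reversed to −0.29 points unthinned and −0.88 points at 3000 UMIs, for Fcer1g to −0.22 points unthinned, and in neutrophils for Fcer1g to −0.085 points unthinned. Larger changes of direction occurred where intervals at 1000 UMIs overlapped. Fcgr1 in neutrophils went from 13.6% (TAC) and 8.99% (sham) to 44.7% and 65.2% unthinned. In B barcodes it went from 16.9% and 10.6% to 69.5% and 75.6% unthinned. In NK barcodes it went from 12.7% and 13.2% to 38.6% and 25% at 3000 UMIs. Fcgr3 in neutrophils went from 53.5% and 52.8% to 95.5% and 97.2% unthinned. Members within 1.5-fold also changed sign, and past 1.5-fold these were Fcgr2b in monocytes (0.81, thinned) and in B barcodes (0.80, subtracted), and Fcgr3 (−2.83) and Fcer1g (−1.07) in B barcodes low in C1q. Subtraction left few sham UMIs (4.47 of Fcgrt in monocytes and 25.5 in B barcodes), and the sets low in C1q held 3 to 37 sham barcodes, so members with few UMIs had wide intervals there.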
